A study of Caenorhabditis elegans with 4 samples.

Results

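Transcription factor genes that set the fate of the embryonic epidermis were examined in early embryos of the nematode Caenorhabditis elegans after RNAi against sig-7. The 7 genes were elt-1, elt-3, elt-6, lin-26, nhr-23, nhr-25 and ceh-16, taken as the rows of the authors' deposited gene table with exactly those names. All 7 had a row and all 7 were tested, among 37812 rows of which 10703 were tested. RNA was measured in 4 libraries of the wild-type strain N2, 2 from sig-7 RNAi embryos (labelled sig-7 loss) and 2 from control embryos (labelled L4440, the empty RNAi vector). Embryos of both groups ranged from the 1-cell to the 350-cell stage and were released by bleaching from adults grown for 72 h after synchronization. The labels state bacterial food of strain OP50 for these worms and do not describe how RNAi was given. The authors' deposited tables hold 1 FPKM value per gene and group (fragments per kilobase of transcript, scaled to the number of mapped fragments), pooled over the libraries. No value per library was at hand and library depth is unknown. Nothing in the labels ties the libraries to separate cultures, so the spread behind the tests may be technical.

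The epidermis of C. elegans is the single-layered outer epithelium that encloses the embryo, drives its elongation and secretes the cuticle. ELT-1, a GATA-type zinc finger factor, commits blastomere descendants to the epidermal fate and acts upstream of the other factors. LIN-26, another zinc finger protein, then maintains the epithelial state, and ELT-3 acts in epidermal cells outside the lateral seam. ELT-6 and its relative EGL-18 act with the Engrailed homologue CEH-16 in the seam cells, while the nuclear receptors NHR-25 and NHR-23 serve epidermal differentiation and moulting. SIG-7, a cyclophilin of the nucleus that also carries an RNA-binding motif, has a known part in transcription. The design asks which RNAs differ in level after its depletion.

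In sig-7 RNAi embryos 4 of the 7 genes fell, elt-1, elt-3, nhr-25 and ceh-16, and 0 rose. Fell and rose here mean a q-value below 0.05 in the authors' deposited table, which was made with Cuffdiff. Of all tested genes, 17.3% fell and 11.2% rose, 28.4% together. At an unadjusted p under 0.05 the counts for the 7 genes were the same, 4 lower and 0 higher. In the deposited tables of isoforms and of start site groups the same 4 genes fell, where 16.4% and 16.9% of all tested rows fell. Those tables repeat the gene table's FPKM values for all 7 genes, so these calls are not separate evidence. At q under 0.01 all 4 were still called, against 13.1% of all tested genes. The remaining genes lin-26, nhr-23 and elt-6 did not pass the test, with FPKM values in sig-7 RNAi embryos at 86.02%, 63.1% and 60.9% of the control values. All 7 pooled values were lower in sig-7 RNAi embryos, as were 51.1% of those of the 10507 tested genes with 1 gene name. The median log2 ratio of the 7 genes, with 1 FPKM added to each value, was -1.60, against -0.03 over all tested genes. In these whole-embryo samples, fewer epidermal cells and less RNA per epidermal cell cannot be told apart.

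The target was lower in the knockdown, with sig-7 at 8.72 FPKM in sig-7 RNAi embryos and 39.8 FPKM in control embryos (q listed as 0 in the authors' deposited table). The total FPKM over all genes was 1.69-fold higher in sig-7 RNAi embryos. If both groups were brought to the same total, every log2 ratio would be lower by 0.75, so the falls below would be larger and the values near 0 would move down. Scaling to a median ratio of 1 over the tested genes would instead shift every log2 ratio by only -0.0024. Which scale fits these embryos better was not tested. An error for each log2 ratio was taken from the deposited test. Its p-values equalled those of a standard normal statistic to within 2.69e-06 in all 10098 tested rows above 0. The statistic had the sign opposite to the log2 ratio in all these rows, so only its size was used. The log2 ratio divided by that size was taken as the standard error (SE). This assumes that the statistic is the log ratio over its SE. The 95% intervals below use 1.96 times that SE.

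**Figure D1:**
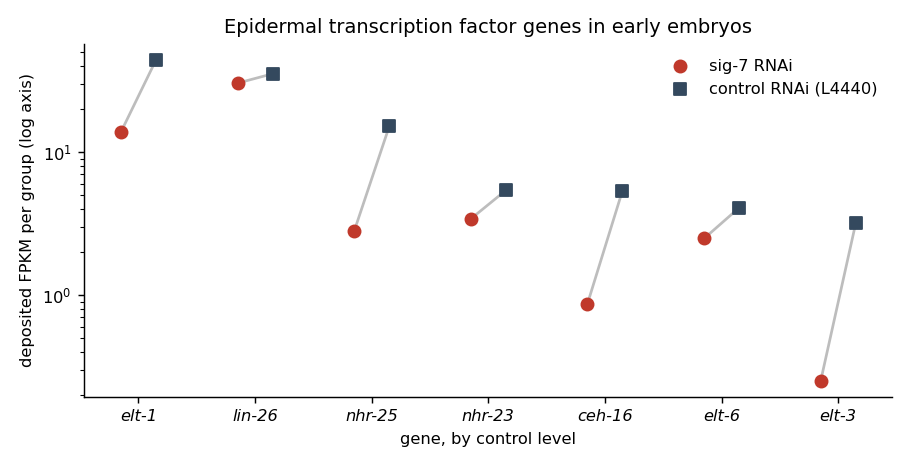
Deposited FPKM of each gene in sig-7 RNAi embryos (red circles) and control embryos (dark squares), on a log axis, with genes ordered by control level; each point is 1 pooled value, so no error bar is drawn. All 7 circles lie below their squares, with elt-3 at 0.252 FPKM in sig-7 RNAi and 3.18 FPKM in control embryos, and lin-26 at 30.5 FPKM in sig-7 RNAi and 35.5 FPKM in control embryos.

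elt-1, the gene at the head of the epidermal programme, was the most abundant of the 7 in control embryos by deposited FPKM. It was at 13.9 FPKM in sig-7 RNAi embryos, against 44.3 FPKM in control embryos, 3.19-fold lower. The authors' deposited table gives a log2 ratio of -1.67 (implied SE 0.35, interval -2.36 to -0.98) and q = 2.47e-05. Among the 1671 other tested genes whose control level lay within 1.5-fold of that of elt-1, 13.6% fell and 5.21% had a lower log2 ratio than elt-1. The deposited locus of elt-1 covers 321 bases (chromosome IV, 9619321 to 9619641 on build ce10). This is the length of the shortest of 6 annotated transcripts, W09C2.1e, a single exon that lies inside an exon of all 5 other transcripts in the WBcel235 annotation. The elt-1 value thus stands for a short stretch common to the annotated transcripts, out of a longest coding length of 1467 bases, and its FPKM is less comparable with the other genes.

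elt-3, which encodes a GATA factor of the epidermis outside the seam, had the largest fold of the 7. It was at 0.252 FPKM in sig-7 RNAi embryos and 3.18 FPKM in control embryos, 12.6-fold lower. In the authors' deposited table its log2 ratio was -3.66 with q = 0.00585. The implied SE of 1.12 was the second largest of the 7, so that the interval reached from -5.85 to -1.47, or from 57.6-fold to 2.77-fold lower. Genes of this low control level fell often: 29.7% of 976 such genes fell, and 11.99% had a lower log2 ratio. The locus of elt-3 (chromosome X, 13939657 to 13940646) spans 990 bases, the coding span of the shortest annotated form, K02B9.4d, in a gene annotated with 6 transcripts over 6343 bases.

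nhr-25, the gene of a nuclear receptor related to the Drosophila factor Ftz-F1, had the strongest test of the 7. It was at 2.81 FPKM in sig-7 RNAi embryos and 15.2 FPKM in control embryos, 5.39-fold lower. The authors' deposited table lists its log2 ratio as -2.43 and its q as 0, where the smallest q printed above 0 is 1.37e-14. The implied SE was 0.29 and the interval ran from -2.999 to -1.86. Among 2119 genes of like control level 17.5% fell, and 5.99% had a lower log2 ratio. Its locus (chromosome X, 13008823 to 13013144) has the coding span of transcripts F11C1.6a.1 and F11C1.6a.2. Of its 2 isoform rows, 1 held the whole value and the other was listed at 0 in both groups with a status of too little data.

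ceh-16, the engrailed gene of C. elegans, which acts in seam cells, was at 0.872 FPKM in sig-7 RNAi embryos and 5.39 FPKM in control embryos. It was 6.18-fold lower, with a log2 ratio of -2.63 and q = 0.000208 in the authors' deposited table. The interval from the implied SE of 0.62 was -3.84 to -1.41. Of 1163 genes of like control level 26.1% fell and 16.5% had a lower log2 ratio. Its locus on chromosome III runs from 8622808 to 8625920.

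lin-26 differed from these 4 genes in that its level did not pass the test and its interval was narrow. It was at 30.5 FPKM in sig-7 RNAi embryos and 35.5 FPKM in control embryos. The authors' deposited table gives a log2 ratio of -0.22 with q = 0.581. With an implied SE of 0.23, the smallest of the 7, the interval ran from -0.67 to 0.24, which allows at most a 1.59-fold lower level on the deposited scale. At equal totals its log2 ratio would be -0.97. Among the 1952 other genes within 1.5-fold of its control level, 14.1% fell. The locus (chromosome II, 7682424 to 7684131) has the coding span of transcript F18A1.2a. The 3 genes of LIN-26 relatives on the same chromosome were not called either. lir-1, the neighbour of lin-26, was at 66.4 FPKM in sig-7 RNAi embryos and 49.7 FPKM in control embryos (q = 0.194 in the authors' deposited table), and its log2 ratio of 0.42 would be -0.34 at equal totals. lir-2 was at 14.6 FPKM in sig-7 RNAi embryos and 21.3 FPKM in control embryos (log2 ratio -0.55, q = 0.0841 in the authors' deposited table). lir-3, in a locus shared by 195 rows, was at 5.24 FPKM in sig-7 RNAi embryos and 7.93 FPKM in control embryos.

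nhr-23, the gene of the nuclear receptor of the ROR family that serves moulting, was at 3.42 FPKM in sig-7 RNAi embryos and 5.42 FPKM in control embryos. Its log2 ratio was -0.66 (implied SE 0.36, interval -1.36 to 0.03), with p = 0.0624 and q = 0.161 in the authors' deposited table. The interval holds both equal levels and a 2.57-fold lower level. nhr-23 and ceh-16 had almost the same control level, 5.42 and 5.39 FPKM. Their intervals did not overlap but nearly touched, with the lower end of nhr-23 at -1.36 and the upper end of ceh-16 at -1.41. Of 1162 genes near that control level 26.2% fell. The deposited locus of nhr-23 (chromosome I, 7219629 to 7220950) has the coding span of the form C01H6.5e, with the shortest coding length of 6 annotated transcripts.

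elt-6, the seam GATA gene, gave no usable comparison. It was at 2.49 FPKM in sig-7 RNAi embryos and 4.09 FPKM in control embryos, with a log2 ratio of -0.71 and q listed as 1.00 in the authors' deposited table. The implied SE was 5.01, which makes the interval -10.5 to 9.11. The annotated gene spans 3667 bases, while its deposited locus (chromosome IV, 858932 to 1921342) spans 1062411 bases and is shared by 196 rows of the gene table. Of the 88 tested rows of that locus 0 passed the Cuffdiff test, 0 had an unadjusted p under 0.05, and the smallest q was 0.425. Of 1062 genes near the control level of elt-6, 28.5% fell. The neighbouring gene egl-18, the partner of elt-6 in seam cells, lies in the same locus, at 30.03 FPKM in sig-7 RNAi embryos and 46.0 FPKM in control embryos (log2 ratio -0.61, implied SE 1.46, q = 0.901 in the authors' deposited table). Loci of this kind rarely gave a call: in those shared by more than 100 rows, 0.117% of 1703 tested genes fell or rose and the median implied SE was 4.66. In loci of at most 20 rows, where the other 6 epidermal genes lie, 21.4% of 8543 tested genes fell and the median implied SE was 0.30. The lack of a call for elt-6 therefore says nothing about its level. The interval of egl-18, -3.47 to 2.24, was narrower but still allows an 11.1-fold lower level as well as a higher one.

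**Figure D2:**
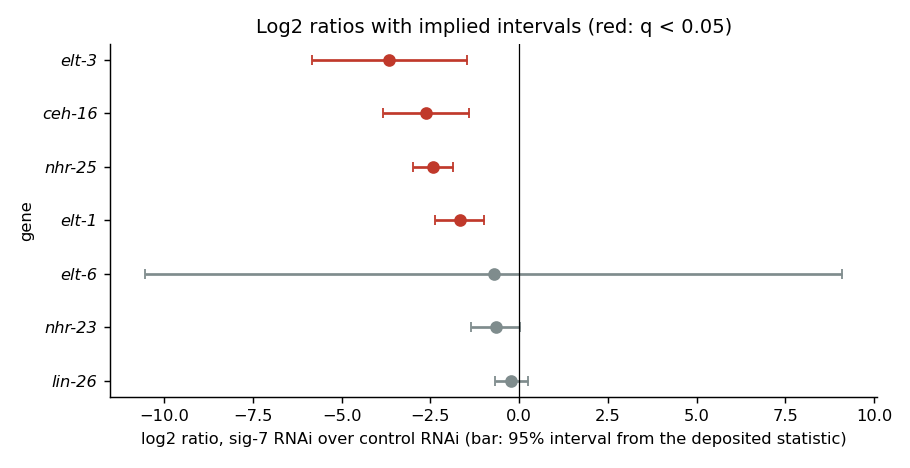
Log2 ratio of sig-7 RNAi over control RNAi for each gene, with bars for the 95% interval from the deposited statistic; red marks q under 0.05 and grey marks genes that were not called. The bars of elt-3, ceh-16, nhr-25 and elt-1 lie below 0, while the bar of elt-6 runs from -10.5 to 9.11.

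**Figure D3:**
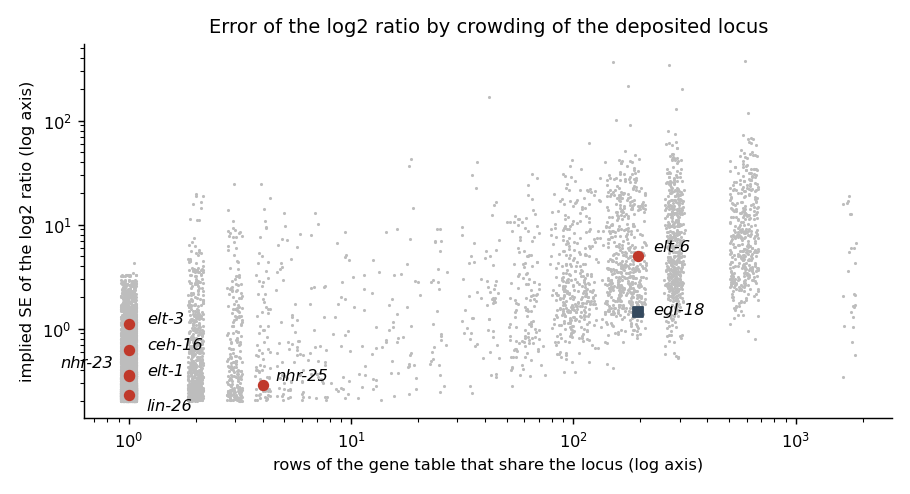
Implied SE of the log2 ratio against the number of gene table rows that share a deposited locus, both on log axes and with the row numbers of the grey tested genes spread sideways for display; red points are the epidermal fate factor genes and the dark square is egl-18. elt-6 and egl-18 sit among loci of 196 rows with SE values of 5.01 and 1.46, and the other 6 genes lie at 1 or 4 rows.

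Levels within the set differed unequally between the groups, a comparison that does not depend on how the groups were scaled. Relative to lin-26, elt-1 stood at 0.455 in sig-7 RNAi embryos and 1.25 in control embryos, a 2.74-fold drop. The same ratio to lin-26 dropped 4.64-fold for nhr-25, 5.32-fold for ceh-16 and 10.9-fold for elt-3. lin-26 made up 56.2% of the summed FPKM of the 7 genes in sig-7 RNAi embryos and 31.4% in control embryos. Leaving out elt-1, with its short locus, these shares were 75.6% in sig-7 RNAi embryos and 51.6% in control embryos. The interval of lin-26 did not overlap those of the 4 genes that fell. That of nhr-23 did not overlap those of elt-3, nhr-25 and ceh-16. All other pairs overlapped, those with elt-6 because its interval, -10.5 to 9.11, covers all the others. How often intervals of other tested genes lie apart was not computed, and the split largely follows which genes passed the same test. The lower end of the nhr-23 interval, -1.36, lay close to the upper ends for ceh-16 (-1.41) and elt-3 (-1.47). No pair test was run.

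The order of the levels also differed between the groups. In sig-7 RNAi embryos it was lin-26, elt-1, nhr-23, nhr-25, elt-6, ceh-16 and elt-3 from high to low. In control embryos it was elt-1, lin-26, nhr-25, nhr-23, ceh-16, elt-6 and elt-3. With no spread per group, neighbours such as nhr-23 and ceh-16 in control embryos, or nhr-23, nhr-25 and elt-6 in sig-7 RNAi embryos, cannot be ranked firmly.

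**Figure D4:**
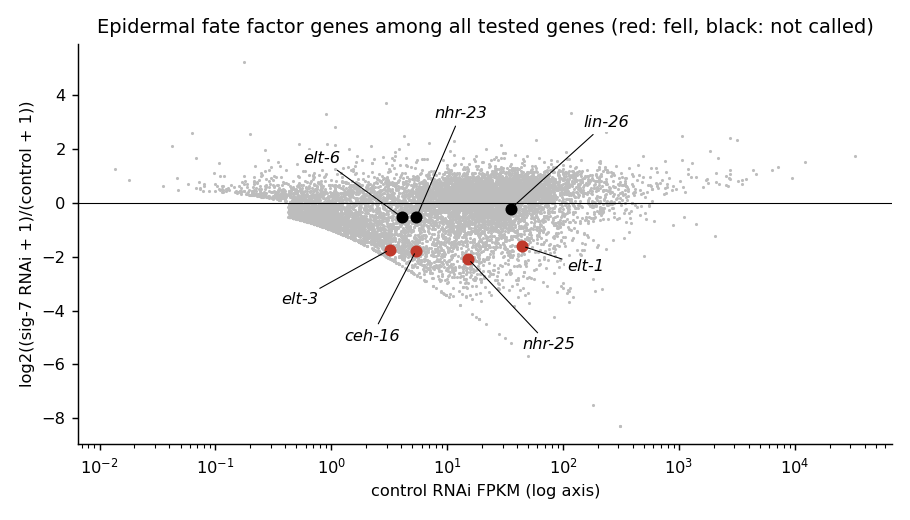
Log2 of (sig-7 RNAi FPKM + 1) over (control FPKM + 1) against control FPKM (log axis) for the tested genes with 1 name and above 0 in the control (grey), with the epidermal fate factor genes in red where they fell and black where they were not called. lin-26 lies inside the main band near 0, and elt-1 and nhr-25 lie below it.

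Chromosome and pattern were described beside these values. elt-3 and nhr-25 are X-linked, and 34.4% of tested X-linked genes fell, against 14.5% of tested autosomal genes. elt-1 and ceh-16 are autosomal. By the distance between pairs of log2(FPKM + 0.1) values over the 2 groups, the genes nearest to elt-1 were K04B12.2 and M05B5.4, both of which fell. Those nearest to nhr-25 were acbp-3 and cutl-25, which fell too. The genes nearest to ceh-16 were C10C5.4 and lbp-5, and to elt-3 R07E3.1 and tbx-7, of which only C10C5.4 and R07E3.1 passed the test and fell. lbp-5 (0.904 FPKM in sig-7 RNAi and 5.39 FPKM in control embryos) also had a lower value without a call. So did tbx-7 (0.243 FPKM in sig-7 RNAi and 3.38 FPKM in control embryos). M142.5 and epg-4 were nearest to lin-26, sdz-38 and kgb-1 to nhr-23, and F35H12.5 and Y54G2A.50 to elt-6, and 0 of these 6 were called. With 2 values per gene such likeness says only that both levels were close.

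Other regulators with known parts in the epidermis or seam were often lower. Of 30 such genes 25 were tested, 13 fell and 0 rose (52.0%, against 17.3% of all tested genes, and the same counts at an unadjusted p under 0.05), and the median log2 ratio with 1 FPKM added was -0.99. These genes were listed with earlier results of these data known, so their share is not independent of the data. The largest fall among them was that of the nuclear receptor gene nhr-67, at 0.340 FPKM in sig-7 RNAi embryos and 7.08 FPKM in control embryos. The zinc finger gene ztf-16 was at 0.863 FPKM in sig-7 RNAi embryos and 11.5 FPKM in control embryos. The TEAD-family gene egl-44 was at 0.632 FPKM in sig-7 RNAi embryos and 7.08 FPKM in control embryos, and the Pax6 gene vab-3 was at 0.730 FPKM in sig-7 RNAi and 8.13 FPKM in control embryos. egl-43, blmp-1, sox-2 and tbx-8 followed, 6.40-fold, 5.93-fold, 5.54-fold and 3.56-fold lower. Of the 25 genes, 6 lie in loci of more than 20 rows and 0 of these were called, among them the Grainyhead gene grh-1 (0.395 FPKM in sig-7 RNAi and 1.75 FPKM in control embryos) and lin-1 (0.362 FPKM in sig-7 RNAi and 3.83 FPKM in control embryos).

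Structural, matrix and junction genes of the epidermis fell in larger numbers. Of 39 tested genes 29 fell (74.4%, against 17.3% of all tested genes) and 0 rose, with a median log2 ratio of -1.84. At an unadjusted p under 0.05, 30 were lower and 0 higher. The largest fall was that of fbn-1, a gene of a fibrillin-like matrix protein, 22.1-fold lower, followed by the hedgehog-related gene wrt-10 (17.2-fold) and the megalin gene lrp-1 (13.9-fold). The cuticle collagen gene sqt-3 was at 9.94 FPKM in sig-7 RNAi embryos and 122.3 FPKM in control embryos. let-653, lpr-1, noah-1 and lpr-3, all genes of apical matrix or lipocalin proteins, were 11.4-fold, 10.4-fold, 10.3-fold and 9.86-fold lower. dpy-7, another cuticle collagen gene, was at 1.99 FPKM in sig-7 RNAi embryos and 16.6 FPKM in control embryos. ajm-1 and dlg-1, which encode proteins of the apical junction, were 4.31-fold and 3.67-fold lower. This list too was made with earlier results of these data known. Both lists are described by counts, and no set test was run.

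Of 10 tested genes of the GATA family 4 fell, elt-1, elt-3, elt-2 and end-1, and 1 rose, med-2. Of all tested genes, 17.3% fell and 11.2% rose. elt-2, the factor gene of the intestine, was at 1.09 FPKM in sig-7 RNAi embryos and 6.37 FPKM in control embryos, and end-1, an endoderm specification gene, was at 4.77 FPKM in sig-7 RNAi embryos and 12.2 FPKM in control embryos. med-2, which acts early in the mesendoderm, was at 3.91 FPKM in sig-7 RNAi embryos and 1.08 FPKM in control embryos (q = 0.0135 in the authors' deposited table), and it stayed above the control with equal totals (log2 ratio 1.10). Its near-identical copy med-1, at 2.00 FPKM in sig-7 RNAi embryos and 0.763 FPKM in control embryos, may share reads with it and was not called. elt-7 and end-3 were not called, with log2 ratios of -0.99 and 0.85, and elt-4 was listed at 0 in both groups.

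Among fate regulators of other tissues, 12 of 31 tested genes fell (38.7%, against 17.3% of all tested genes) and 2 rose, med-2 and hnd-1. By tissue, 2 of 7 endoderm genes, 2 of 7 mesoderm genes, 2 of 7 pharynx genes and 6 of 10 neuronal genes fell, and the median log2 ratio over all 31 was -0.74. In endoderm these were elt-2 and end-1, described above, and in mesoderm ceh-51 and let-381, 4.35-fold and 2.89-fold lower. In the pharynx the T-box gene tbx-2 was 3.54-fold and the FoxA gene pha-4 3.03-fold lower. Among the neuronal genes the homeobox gene ceh-36 was 14.4-fold lower, lin-11 4.85-fold, unc-86 4.84-fold, unc-3 3.596-fold, cnd-1 3.01-fold and hlh-2 1.53-fold. Of the tested genes, 4 of the pharynx and 2 of the neuronal list lie in loci of more than 20 rows and were not called. In loci of at most 20 rows, where all tested endoderm and mesoderm genes lie, 2 of 3 pharynx and 6 of 8 neuronal genes fell. Of all tested genes in such loci 21.4% fell. hnd-1, a mesodermal bHLH gene, was 1.72-fold higher, and its log2 ratio shrank to 0.03 with equal totals. Whether the epidermal factors differ from these groups was not tested.

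**Figure D5:**
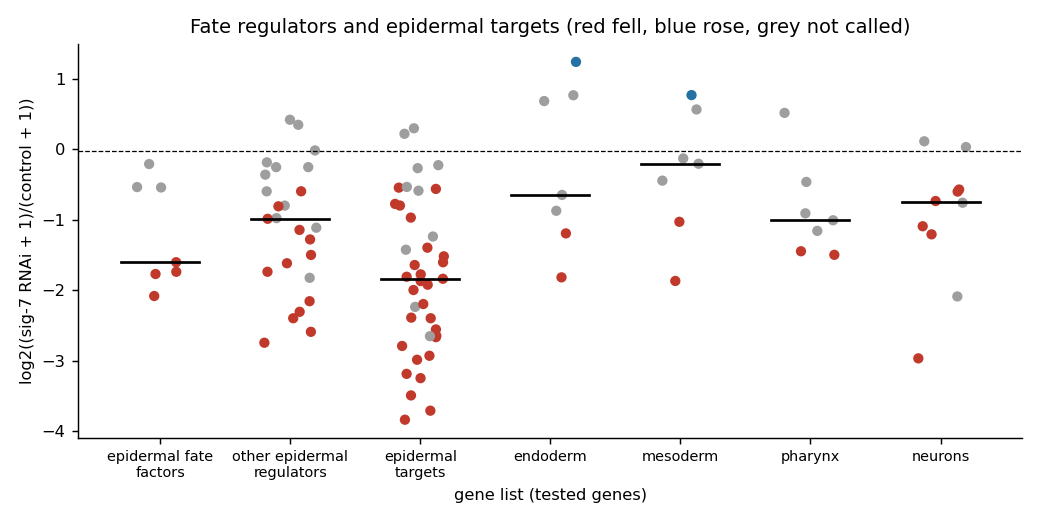
Log2 of (sig-7 RNAi FPKM + 1) over (control FPKM + 1) for each tested gene of 7 lists, with red for genes that fell, blue for genes that rose and grey for genes not called; black bars are list medians and the dashed line is the median of all tested genes. The medians are -1.60 for the epidermal fate factors, -0.99 for other epidermal regulators and -1.84 for epidermal targets.

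Marker genes of several cell types were lower beside the epidermal factors. The counts below stand beside a share of 17.3% of all tested genes that fell. They are not separate from the lists above. The epidermal markers were all counted there, lin-26 among the fate factors and the others among the epidermal targets. The markers elt-2, elt-7, hlh-1, unc-120, pha-4, tbx-2, ceh-22 and unc-86 were also counted among the regulators of other tissues. Of 5 epidermal markers 4 fell, dpy-7, noah-1, ajm-1 and che-14, lin-26 being the exception. Their summed level was 47.5 FPKM in sig-7 RNAi embryos and 180.7 FPKM in control embryos, of which noah-1 gave 10.7 FPKM in sig-7 RNAi embryos and 110.2 FPKM in control embryos. All 5 were above 0 in both groups. For 5 intestine markers the sum was 8.62 FPKM in sig-7 RNAi embryos and 27.3 FPKM in control embryos, and all but elt-7 fell (cpr-6, elt-2, ifb-2 and asp-1, 4 of 5). Of 5 body wall muscle markers 3 fell. The myosin genes unc-54 and myo-3 and the troponin gene unc-27 were 4.02-fold, 2.56-fold and 5.16-fold lower, and together they summed to 3.7996 FPKM in sig-7 RNAi embryos and 13.2 FPKM in control embryos. The muscle transcription factor genes were not called, hlh-1 at 22.4 FPKM in sig-7 RNAi embryos and 14.9 FPKM in control embryos, and unc-120 at 14.8 FPKM in sig-7 RNAi embryos and 20.6 FPKM in control embryos. With hlh-1 and unc-120 included, all 5 muscle markers summed to 41.1 FPKM in sig-7 RNAi embryos and 48.7 FPKM in control embryos, only 1.18-fold lower. Pharynx markers summed to 11.2 FPKM in sig-7 RNAi embryos and 35.8 FPKM in control embryos, and 2 of 3 tested fell (tbx-2 and pha-4). Of 4 tested neuronal markers 1 fell, unc-86. The sum of the neuronal markers in loci of at most 20 rows was 1.99 FPKM in sig-7 RNAi embryos and 4.99 FPKM in control embryos, which leaves out unc-119, in a locus of 286 rows with an implied SE of 4.97.

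Of 5 germ line markers 0 fell and 1 rose, nos-2, where 17.3% of all tested genes fell and 11.2% rose. The 5 markers summed to 280.0 FPKM in sig-7 RNAi embryos and 200.7 FPKM in control embryos. This difference depends on the scale: the log2 ratio of the sums was 0.48 as deposited and -0.27 with equal totals, and that of nos-2 was 0.77 as deposited and 0.015 with equal totals. Scaling to a median ratio of 1 would shift each deposited ratio by only -0.0024. The part of cell composition or embryo stage in the levels of the epidermal factors was not tested.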

How the data were processed

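The authors deposited 3 Cuffdiff tables (genes, isoforms and groups sharing a transcription start site). A row gives, per the file headers, both FPKM values, their log2 ratio (sig-7 RNAi over L4440), the statistic, its p-value and its q-value. Per the submitters' processing notes, Cufflinks 2.1.1 and Cuffdiff 2.0.2 were used on build ce10. The sources used here name no annotation, settings or strand handling. Stranded libraries were made from rRNA-depleted total RNA, per the labels' protocols.

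Here the deposited q was the test, and folds are ratios of deposited FPKM values. SE values were computed from the deposited log2 ratio and statistic, with the arithmetic tested on simulated data. Those data were built on the same assumed relation, so they do not test it. Deposited starts count from base 0 and are given from base 1. Locus lengths equalled the coding span of an annotated transcript (Ensembl release 115, WBcel235, lengths only) for 90.6% of 5719 coding genes alone in their locus, so untranslated regions are mostly outside the values. Close copies and overlapping genes may share reads. Python 3.11.15 with pandas 2.3.3 was used. The genes and lists were chosen with earlier results of these data known. Of each list, up to 8 genes with q under 0.05 were named, in order of the size of the log2 ratio, along with all GATA genes. Further genes, among them dlg-1, grh-1, lin-1, hlh-1, unc-120, unc-119, the lir genes, pal-1, vet-1 and pes-10, were named after their values were seen, as were dpy-7 and ajm-1 among the targets.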

Additional observations from a re-analysis of the deposited data

How the results depend on the processing

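No paired analysis was possible because the tables hold 1 pooled value per group, and for the same reason no replicate could be left out. Of 21 alternatives for the counts and the median, 21 kept the count within 1.5 times that reported or the median below 0. Several could hardly differ. The start site group table repeats the same values for the factor genes, and all their log2 ratios were below 0 as deposited. At q under 0.01, 4 of the 7 epidermal fate factor genes and 12 of 25 other epidermal regulators fell. So did 27 of 39 epidermal target genes and 9 of 31 regulators of other tissues, against 13.1% of all tested genes. With loci of at most 20 rows, chosen after seeing the data, 4 of 6 factor genes and 13 of 19 other epidermal regulators fell. In such loci 29 of 34 target genes and 12 of 25 regulators of other tissues fell, against 21.4% of all tested genes. The median log2 ratio of the factor genes ranged from -1.86 with equal total FPKM to -1.60 with a pseudocount of 1 FPKM. For single genes, both rescalings shift every log2 ratio down, so all 14 rescaled values were bound to stay below 0. Of 21 alternatives for single genes, 5 moved a value by more than its SE, all with equal total FPKM. The deposited q could not be recomputed under another scaling. Depth is unknown, so no detection limit is given for elt-3 or ceh-16, which were under 1 FPKM in sig-7 RNAi embryos.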

Other observations

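Maternal regulators of blastomere identity act before the epidermal factors. Of 10 tested, 1 fell and 0 rose in the authors' Cuffdiff test, where 17.3% of all tested genes fell and 11.2% rose. At an unadjusted p under 0.05, 1 was lower and 1 higher. The median log2 ratio with 1 FPKM added was 0.09. The gene that fell was skn-1, at 13.98 FPKM in sig-7 RNAi embryos and 23.1 FPKM in control embryos, with q = 0.0340 in the authors' deposited table. pal-1, a caudal-type homeobox gene of the posterior lineages, was at 91.4 FPKM in sig-7 RNAi embryos and 68.2 FPKM in control embryos and was not called. Its log2 ratio was 0.42 as deposited and -0.33 with equal totals. Of the 10 genes, 3 lie in loci of more than 20 rows.

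Genes first transcribed in early cleavage were mixed. Of 19 tested, 5 fell (26.3%, against 17.3% of all tested genes) and 0 rose. At an unadjusted p under 0.05, 5 were lower and 2 higher, and the median log2 ratio was -0.09. sdz-28 was 9.76-fold lower in sig-7 RNAi embryos, sdz-19 4.64-fold, ceh-51 4.35-fold, sdz-4 2.85-fold and end-1 2.56-fold lower, whereas vet-1 was at 121.0 FPKM in sig-7 RNAi embryos and 108.2 FPKM in control embryos and pes-10 was at 46.1 FPKM in sig-7 RNAi embryos and 44.9 FPKM in control embryos, neither of them called. With equal totals their log2 ratios would be -0.59 for vet-1 and -0.72 for pes-10. Of the 19 genes, 4 lie in loci of more than 20 rows. In loci of at most 20 rows 5 of 15 fell, against 21.4% of all tested genes in such loci. Whether these lists differ from the epidermal factors was not tested.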
